A study of Drosophila melanogaster with 18 samples.

Results

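The immune-induced IM peptides of Drosophila melanogaster were followed in Nxt1 mutants and w1118 animals across the onset of metamorphosis. Their genes were found by symbol: a gene entry was taken when its name, split on commas, held IM followed only by digits. The rule found 9 of the 14542 gene entries, and the same 9 were listed at each stage. By the names RefSeq pairs with these symbols, 4 of them were bomanins, namely IM1 (BomS1), IM2 (BomS2), IM3 (BomS3) and IM23 (BomBc1). IM4 and IM14 were the daisho genes Dso1 and Dso2. The other 3 entries merged IM10, which belongs to the baramicin A genes, with CG33470. The name bomanin therefore covers 4 of the 9 entries, and the daisho and baramicin entries are described beside them.

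IM peptides were first seen as small molecules that appear in the haemolymph, the blood of the fly, after infection. The fat body makes most of them when the receptor Toll is activated by its ligand Spätzle and releases the transcription factors Dif and Dorsal from their inhibitor Cactus. Bomanins are short secreted peptides that flies need for Toll-dependent resistance to fungi and many Gram-positive bacteria. Daisho peptides act against some filamentous fungi, and baramicin A is a precursor that is cut into several antifungal peptides.

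RNA was sequenced from whole animals in 18 samples, 3 for each genotype and stage. The mutants carried the Nxt1 alleles DG05102 and Z2-0488 in trans, with yw given as their strain, and the controls were w1118. Nxt1 is the small partner of the export receptor that carries messenger RNA out of the nucleus. Both genotypes were taken as wandering larvae, as stationary larvae and as white prepupae, none is described as infected, and all were fed with food containing a blue dye. The strain and the Nxt1 genotype differ together, so their effects cannot be told apart. In whole animals, fewer cells of a type and less RNA per cell cannot be told apart either.

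Every FPKM below (a read level corrected for transcript length and for the number of fragments sequenced), every log2 fold change and every q comes from the authors' deposited table of its stage. That table holds 1 FPKM per genotype, pooled over the 3 samples, so the spread between samples cannot be shown, and the depth is unknown. Each log2 fold change is trans-heterozygotes over w1118, and the error after it is a standard error taken from the authors' test statistic. Where a gene is said to rise or fall at a stage, trans-heterozygotes are compared with w1118 at that stage. A gene was called higher or lower when the authors had tested it and its q was at most 0.05. Nxt1 itself was not called at any stage: it had 9.28 FPKM in trans-heterozygous and 11.6 FPKM in w1118 wandering larvae, 15.5 FPKM in trans-heterozygous and 11.5 FPKM in w1118 stationary larvae, and 17.9 FPKM in trans-heterozygous and 10.6 FPKM in w1118 prepupae. Its q in the authors' deposited table was 0.998, 0.788 and 0.480 in stage order.

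The IM genes had lower FPKM in trans-heterozygous than in w1118 wandering larvae and higher FPKM in trans-heterozygous stationary larvae. In wandering larvae all 7 entries that were tested had a lower FPKM in the trans-heterozygotes, and Cuffdiff, the authors' test, called 0 of them, against 11.8% of all tested genes, 9.49% lower and 2.29% higher. At an unadjusted p of 0.05, 3 of these entries passed, namely IM1, IM3 and IM4, as did 1986 genes in all. In stationary larvae all 9 entries were tested, all 9 had the higher FPKM in the trans-heterozygotes, and 6 were called higher, against 4.7% of tested genes. No entry was called lower in stationary larvae, where 13.2% of tested genes were. In prepupae all 9 entries were tested, 4 were called higher, against 4.03% of tested genes, and 1 was called lower, against 12.9%. Over both directions that is 5 of 9 entries in prepupae, against 16.9% of tested genes, and 6 of 9 in stationary larvae, against 17.9%. At a q of 0.01 the prepupal count was 1 and the stationary count 6. Because 3 of the 9 entries are copies of IM10, these counts rest on fewer than 9 independent genes, and with IM10 counted once they were 4 in stationary larvae and 3 in prepupae.

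**Figure D1:**
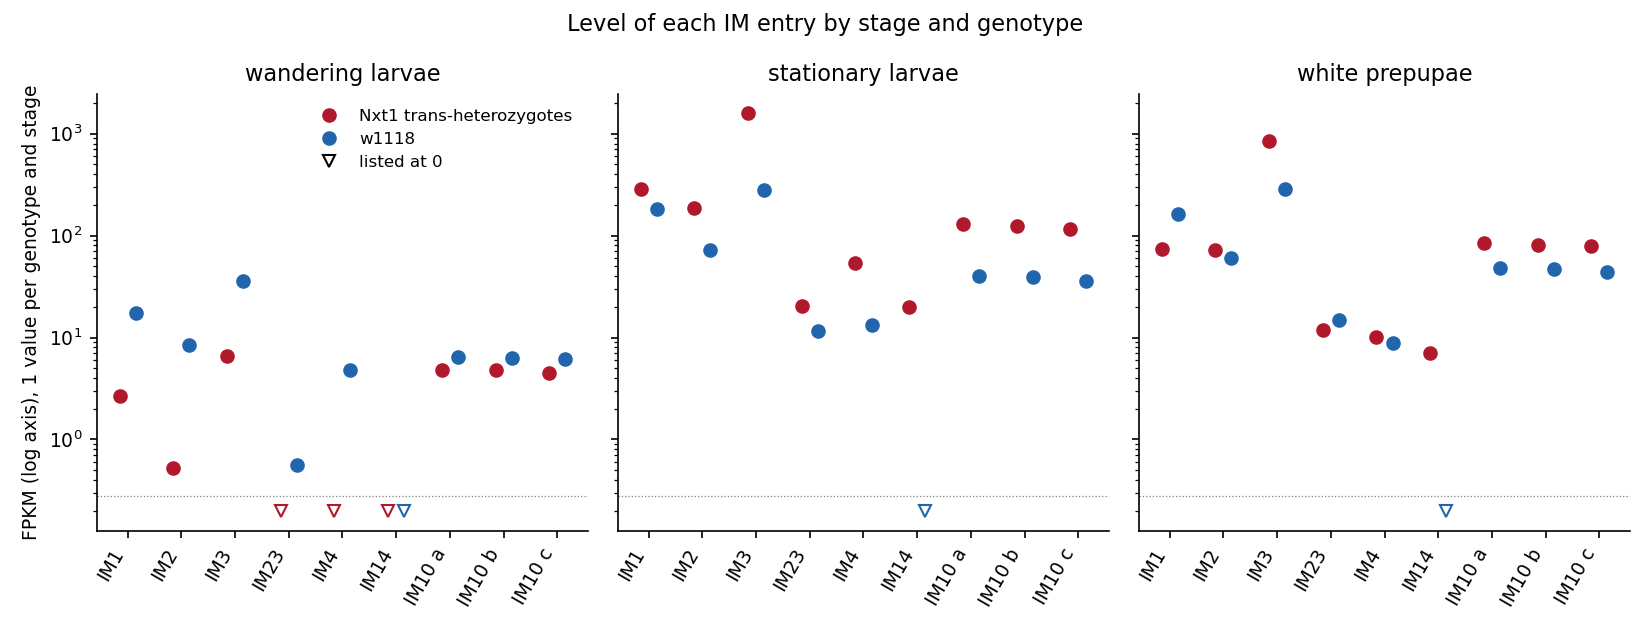
FPKM of the 9 IM entries (log axis) in Nxt1 trans-heterozygotes (red) and w1118 (blue) at the 3 stages, with 1 deposited value per genotype and stage and open triangles for entries listed at 0. The trans-heterozygotes lie below w1118 in wandering larvae for every entry not listed at 0 in both genotypes and above w1118 in stationary larvae for all 9, with IM3 the highest at 1582 FPKM.

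Among the bomanins, IM1, IM2 and IM3 are short bomanins, each little more than 1 mature peptide. IM3 was the most abundant of them in both genotypes at all 3 stages. In wandering larvae it had 6.63 FPKM in trans-heterozygotes and 36.2 FPKM in w1118 (log2 fold change -2.45 ± 1.05, q = 0.129). In stationary larvae it had 1582 FPKM in trans-heterozygotes and 282 FPKM in w1118 (log2 fold change 2.49 ± 0.28), 5.62-fold higher, with q listed as 0 in the authors' deposited table. In prepupae it had 839 FPKM in trans-heterozygotes and 288 FPKM in w1118 (1.54 ± 0.26, q = 5.3e-08), 2.92-fold higher. IM3 therefore rose at the later pair of stages, and its lower value in wandering larvae did not pass the test. By FPKM, IM3 ranked 45 among all entries in trans-heterozygous stationary larvae and 310 in w1118, and in wandering larvae it ranked 7067 in trans-heterozygotes and 2395 in w1118.

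IM1 was called in prepupae and at neither larval stage. In wandering larvae it had 2.70 FPKM in trans-heterozygotes and 17.6 FPKM in w1118 (log2 fold change -2.71 ± 1.25, q = 0.188). In stationary larvae it had 287 FPKM in trans-heterozygotes and 182 FPKM in w1118 (0.66 ± 0.30, q = 0.117). In prepupae IM1 fell to 74.4 FPKM in trans-heterozygotes, against 163 FPKM in w1118 (-1.13 ± 0.35, q = 0.0101), 2.19-fold lower, and it was the single IM entry called lower at any stage.

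IM2 was the least abundant of the 3 short bomanins with an IM symbol. In wandering larvae it had 0.525 FPKM in trans-heterozygotes and 8.48 FPKM in w1118 (log2 fold change -4.01 ± 2.54, q = 0.488), a large difference with a large error, which came to -2.64 with a pseudocount of 1 FPKM. In stationary larvae IM2 rose to 188 FPKM in trans-heterozygotes, against 71.9 FPKM in w1118 (1.39 ± 0.35, q = 6.74e-04 in the authors' deposited table), 2.62-fold higher. In prepupae it had 71.6 FPKM in trans-heterozygotes and 60.4 FPKM in w1118 (0.24 ± 0.39, q = 0.805). So IM2 was called at the stationary stage and at neither other stage.

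IM23 is a bicipital bomanin, a longer form that carries a pair of bomanin motifs. It was listed at 0 in trans-heterozygous wandering larvae and at 0.556 FPKM in w1118, too low for the authors to test. In stationary larvae it had 20.3 FPKM in trans-heterozygotes and 11.5 FPKM in w1118 (log2 fold change 0.82 ± 0.56, q = 0.412), and in prepupae 12.0 FPKM in trans-heterozygotes and 14.8 FPKM in w1118 (-0.31 ± 0.59, q = 0.848). IM23 was not called at any stage.

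**Figure D2:**
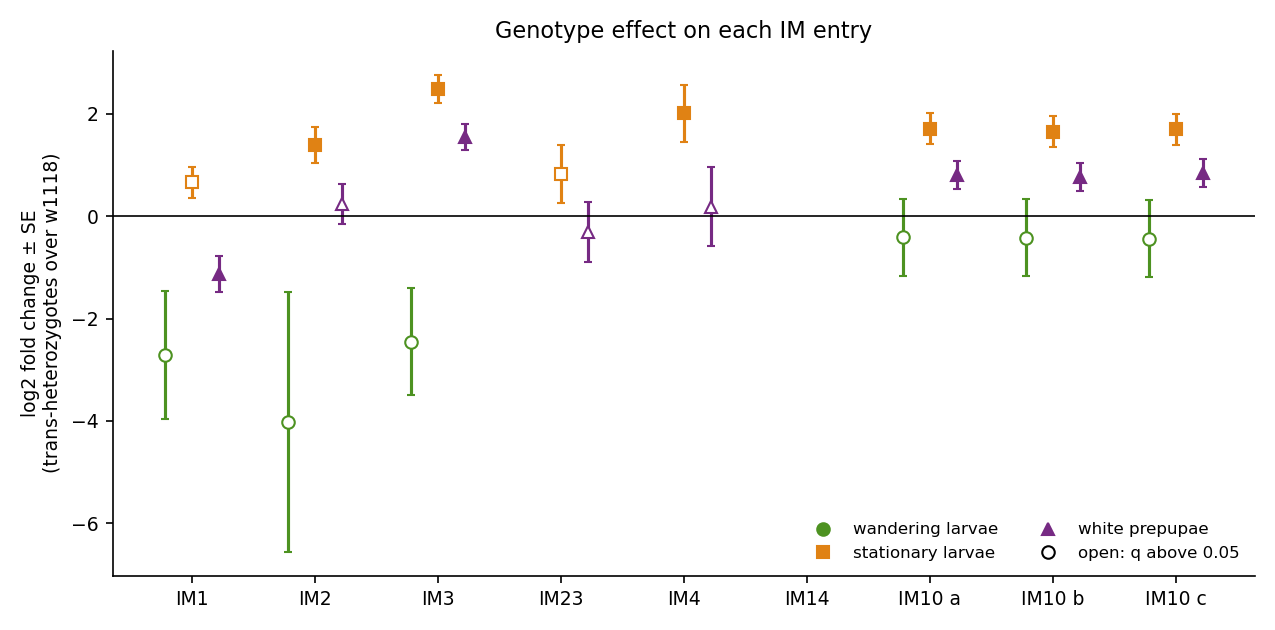
Log2 fold change of trans-heterozygotes over w1118 with its standard error for each IM entry at each stage, filled where q was at most 0.05 in the authors' deposited table. A stage has no point where a genotype is listed at 0, as for IM14 throughout and for IM4 and IM23 in wandering larvae; IM3 lies at 2.49 in stationary larvae and IM1 at -1.13 in prepupae.

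Whether the genotype effect itself differed between stages was tested for each gene from the difference of its log2 fold changes, with a two-sided normal test and Benjamini-Hochberg adjustment over all genes tested at both stages. From wandering to stationary larvae, the effect on IM3 was larger by 4.94 ± 1.08 on the log2 scale (95% interval 2.82 to 7.06, q = 0.00172). A difference larger at the later stage passed for 0.574% of the 10459 genes tested, and a smaller one for 0.0861%, and by p IM3 ranked 30 over both directions, in which 0.66% passed. From wandering larvae to prepupae, the effect on IM3 was larger by 4.0 ± 1.08 (95% interval 1.88 to 6.11, q = 0.0236), where 1.06% of genes passed, 0.614% with a larger and 0.446% with a smaller effect. From stationary larvae to prepupae, the effect on IM1 changed by -1.79 ± 0.46 (95% interval -2.70 to -0.89, q = 0.0147), where 0.861% of genes passed, 0.551% with a smaller and 0.31% with a larger effect at the later stage. These 3 differences were the only ones of the IM entries that passed. IM4, IM14 and IM23 could not be tested against wandering larvae, and IM14 not between any stages, because a genotype was listed at 0.

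The other differences that could be tested missed the threshold, with wide intervals. From wandering to stationary larvae the effect differed by 3.37 ± 1.29 for IM1 (q = 0.413), by 5.41 ± 2.56 for IM2 (q = 0.991) and by 2.13 ± 0.81 for the first IM10 entry (q = 0.413). From stationary larvae to prepupae it differed by -0.95 ± 0.38 for IM3 (q = 0.517), by -1.15 ± 0.53 for IM2 (q = 0.871) and by -1.82 ± 0.95 for IM4 (q = 1.0). The differences that share a stage use the same values of that stage, so they are not independent of each other.

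The 4 bomanins with an IM symbol lie on arm 2R, within a cluster of 10 bomanin genes that spans 9202 bases, from 14268913 to 14278114 in the deposited tables' coordinates, whose genome build is not given in the sources used here. IM23 was listed at 14270208 to 14270737, IM1 at 14271456 to 14271883, IM2 at 14274101 to 14274535 and IM3 at 14275624 to 14275995. All are small genes, with loci of 530, 428, 435 and 372 bases in that order. Each had 1 isoform and 1 start site in the tables. RefSeq names a further 6 bomanins in the cluster, which the tables list as CG43202 (BomT1), CG18107 (BomS4), CG15067 (BomBc2), CG16836 (BomT2), CG15065 (BomS5) and CG15068 (BomS6). CG18107 and CG15067 lie between IM1 and IM2, so IM23 and IM1 are neighbours, as are IM2 and IM3. The family has 2 more members elsewhere, CG5778 (BomT3) and CG5791 (BomBc3), which were not tested at any stage.

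The cluster members without an IM symbol each had a lower FPKM than IM3 in every group. Cuffdiff called 0 of them at any stage, with 2, 6 and 4 of them tested in stage order. At an unadjusted p of 0.05, 0 passed. Of all tested genes, 11.8%, 17.9% and 16.9% were called in stage order, so 0 calls among so few do not set these members apart. In stationary larvae CG16836, a tailed bomanin, had 38.8 FPKM in trans-heterozygotes and 14.2 FPKM in w1118 (log2 fold change 1.45 ± 0.82, q = 0.269). CG15067, a bicipital one, had 13.4 FPKM in trans-heterozygotes and 5.03 FPKM in w1118 (1.41 ± 0.73, q = 0.203), and CG43202 had 13.2 FPKM in trans-heterozygotes and 2.03 FPKM in w1118 (2.70 ± 1.49, q = 0.250). These fold changes were as large as that of IM2, but their errors were larger. The short bomanin CG15065 had 18.2 FPKM in trans-heterozygotes and 32.3 FPKM in w1118 (-0.83 ± 1.07, q = 0.756), and CG15068 had 9.01 FPKM in trans-heterozygotes and was listed at 0 in w1118 (q = 0.358).

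**Figure D3:**
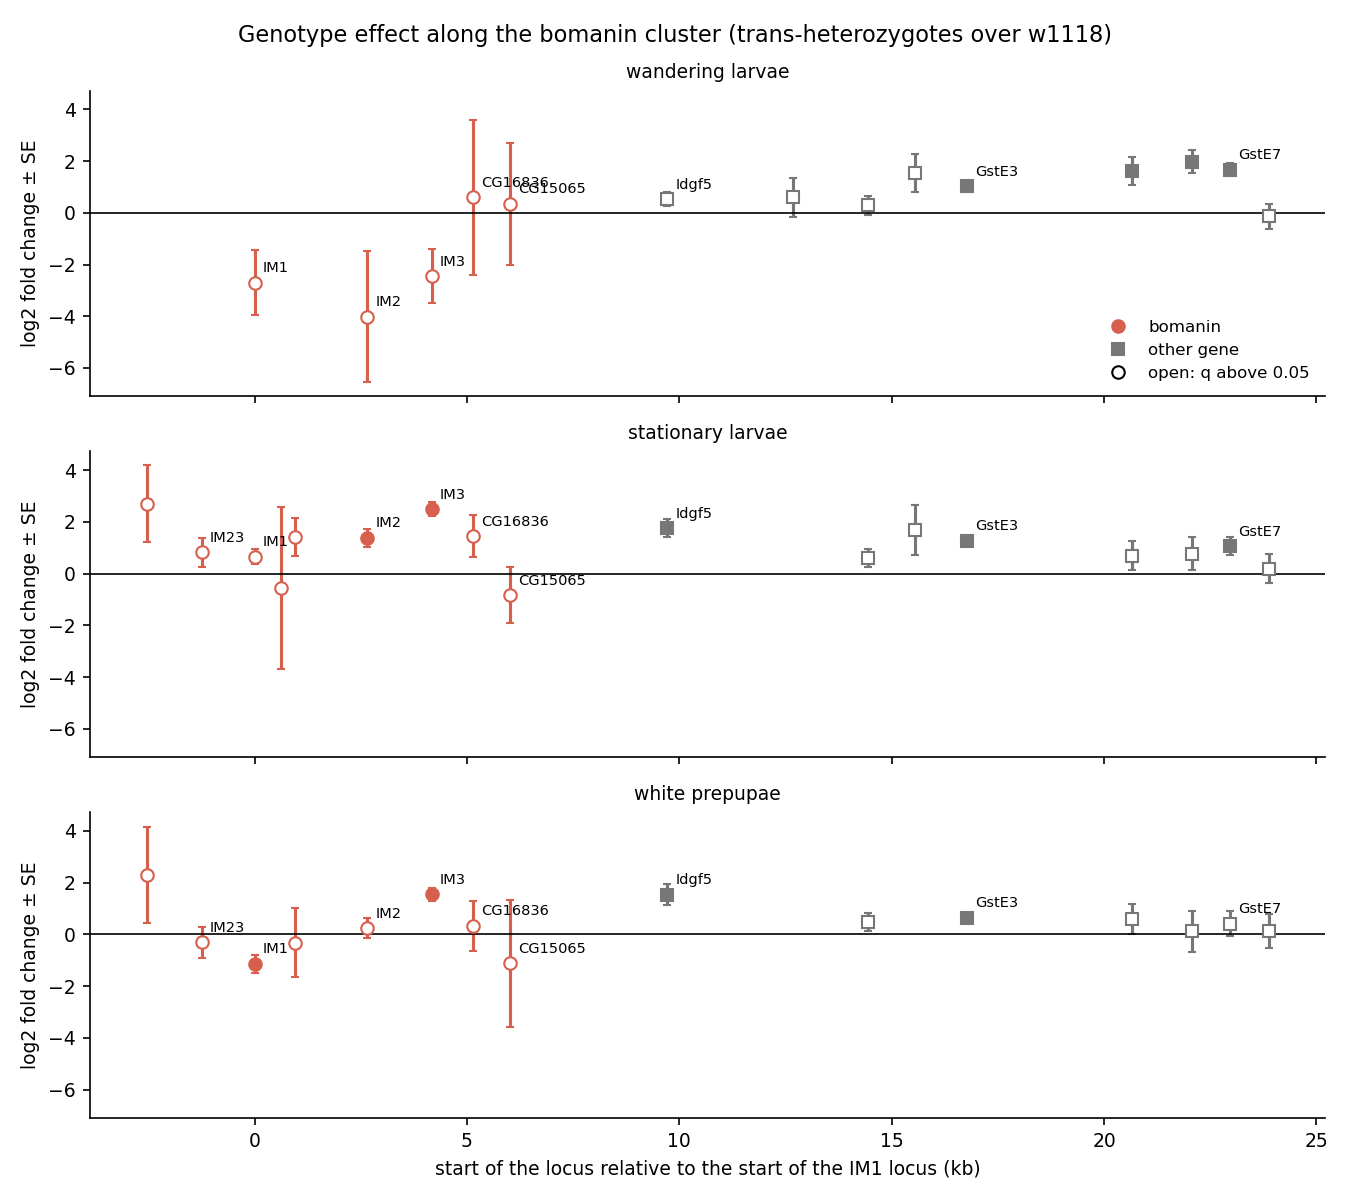
Log2 fold change of trans-heterozygotes over w1118 with its standard error along the bomanin cluster and the genes after it, by the distance of each locus from the start of the IM1 locus in kb, filled where q was at most 0.05. IM2 and IM3 are filled in stationary larvae and IM1 and IM3 in prepupae, and the genes after the cluster have no filled point below 0.

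The make-up of the cluster's RNA also differed between the genotypes. The FPKM of the 10 cluster genes summed to 17.5 in trans-heterozygous and 68.9 in w1118 wandering larvae, to 2173 in trans-heterozygous and 602 in w1118 stationary larvae and to 1031 in trans-heterozygous and 555 in w1118 prepupae. IM3 made up 37.9% of this sum in trans-heterozygotes and 52.6% in w1118 wandering larvae, 72.8% in trans-heterozygous and 46.8% in w1118 stationary larvae and 81.4% in trans-heterozygous and 51.8% in w1118 prepupae. IM1 made up 15.4% in trans-heterozygotes and 25.5% in w1118 wandering larvae, 13.2% in trans-heterozygous and 30.2% in w1118 stationary larvae and 7.22% in trans-heterozygous and 29.4% in w1118 prepupae. In w1118 the shares of IM3 and IM1 thus stayed near the same level at all stages, while the IM3 share in trans-heterozygotes was higher in stationary larvae and prepupae than in wandering larvae.

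The ratio of IM3 to IM1 shows the same shift between genes of the cluster that lie less than 5 kb apart. It was 2.46 in trans-heterozygous and 2.06 in w1118 wandering larvae, 5.51 in trans-heterozygous and 1.55 in w1118 stationary larvae, and 11.3 in trans-heterozygous and 1.76 in w1118 prepupae. On the log2 scale the fold change of IM3 exceeded that of IM1 by 1.83 ± 0.41 in stationary larvae and by 2.68 ± 0.43 in prepupae, with errors that take the genes as independent. That of IM2 exceeded that of IM1 by 0.73 ± 0.46 in stationary larvae and by 1.38 ± 0.53 in prepupae. These pairs were chosen after their values were seen, so the differences are a description with no test.

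**Figure D4:**
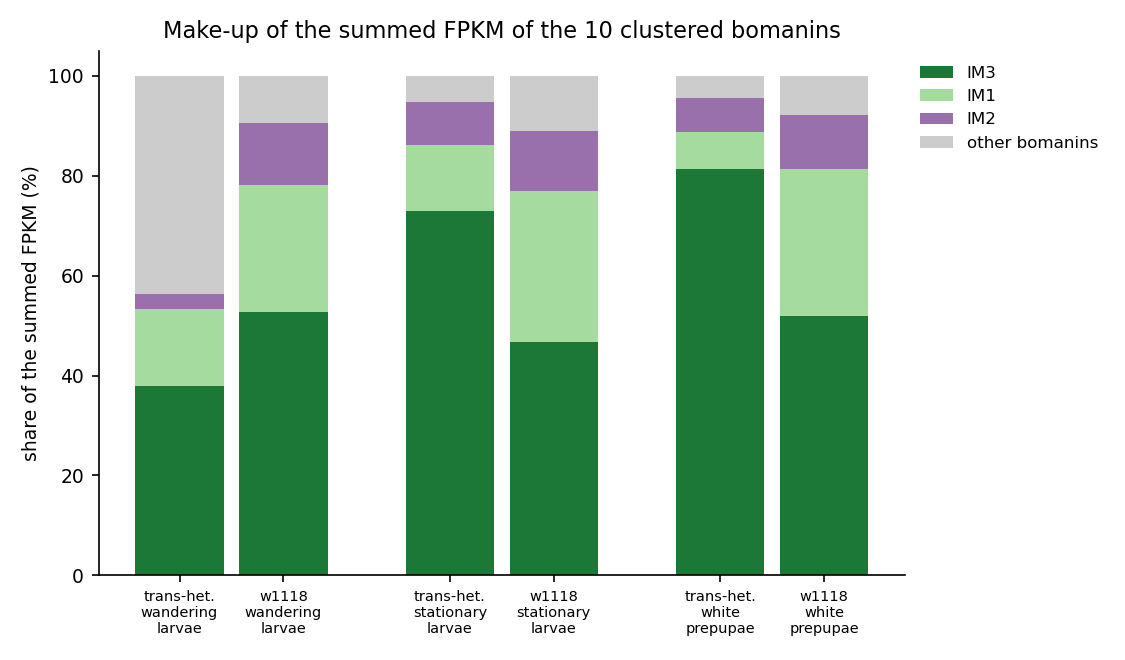
Share in percent of the summed FPKM of the 10 clustered bomanins held by IM3, IM1, IM2 and the rest, in trans-heterozygotes (left bar of each pair) and w1118 (right bar). The IM3 share is 72.8% in trans-heterozygous and 46.8% in w1118 stationary larvae, and 81.4% in trans-heterozygous and 51.8% in w1118 prepupae.

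The level of the bomanins also differed by stage within each genotype, which is given without a test because each stage's table may have been scaled on its own. Among genes of at least 5 FPKM, the median log2 ratio of stationary over wandering larvae was 0.09 in trans-heterozygotes (7456 genes) and 0.16 in w1118 (8144 genes). In trans-heterozygotes the FPKM of stationary over wandering larvae was 107-fold for IM1, 359-fold for IM2 and 239-fold for IM3. In w1118 it was 10.3-fold for IM1, 8.47-fold for IM2, 7.77-fold for IM3 and 20.7-fold for IM23. The IM2 ratio in trans-heterozygotes divides by 0.525 FPKM and the IM23 ratio in w1118 by 0.556 FPKM. At such low levels the size of a ratio is uncertain. The IM bomanins were thus low in wandering larvae of both genotypes and higher in stationary larvae of both. From stationary larvae to prepupae, the w1118 values stayed close, with ratios of 0.898 for IM1, 0.841 for IM2 and 1.02 for IM3. In trans-heterozygotes the same ratios were 0.259 for IM1, 0.380 for IM2 and 0.530 for IM3.

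By FPKM the order IM3, IM1, IM2 held in w1118 at all stages and in trans-heterozygous stationary larvae and prepupae. In trans-heterozygous prepupae IM1 at 74.4 FPKM and IM2 at 71.6 FPKM were near each other, and their order cannot be told from pooled values. In trans-heterozygous wandering larvae, where all bomanins were below 7 FPKM, CG15065 at 5.71 FPKM and CG16836 at 1.94 FPKM stood among them. In w1118 wandering larvae CG15065 had 4.49 FPKM (log2 fold change 0.35 ± 2.35) and CG16836 had 1.28 FPKM (0.60 ± 3.01). Neither was called, and neither had the lower FPKM in trans-heterozygotes seen for IM1, IM2 and IM3.

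The daisho genes IM4 and IM14 lie together on arm 2R, away from the bomanins, at 16756349 to 16756826 and 16757896 to 16758183. IM4 was listed at 0 in trans-heterozygous wandering larvae and at 4.80 FPKM in w1118 (q = 0.159). In stationary larvae IM4 rose to 53.8 FPKM in trans-heterozygotes, against 13.4 FPKM in w1118 (log2 fold change 2.01 ± 0.55, q = 0.00243 in the authors' deposited table), 4.03-fold higher. In prepupae it had 10.1 FPKM in trans-heterozygotes and 8.88 FPKM in w1118 (0.19 ± 0.77, q = 0.942). IM4 was thus called in stationary larvae alone. IM14 was listed at 0 in w1118 at all 3 stages, so it has no fold change. In trans-heterozygotes it was listed at 0 in wandering larvae, at 19.8 FPKM in stationary larvae (q = 0.0886) and at 6.98 FPKM in prepupae (q = 0.376), and it was not called.

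IM10 appeared in 3 entries, each merged with CG33470: a first at 9294510 to 9297458 and a second at 9299237 to 9302119 on arm 2R, and the last on the unplaced sequence Uextra at 268560 to 269913. They are near-identical copies, RefSeq's BaraA1 and BaraA2 among them, so how reads were divided between them is uncertain and their nearly equal values are not 3 independent results. In wandering larvae the first entry had 4.80 FPKM in trans-heterozygotes and 6.39 FPKM in w1118 (log2 fold change -0.41 ± 0.75, q = 0.985). In stationary larvae it rose to 131 FPKM in trans-heterozygotes, against 39.9 FPKM in w1118 (1.71 ± 0.30, q = 3.59e-07). In prepupae it was called higher with 84.9 FPKM in trans-heterozygotes and 48.6 FPKM in w1118 (0.80 ± 0.27, q = 0.0206). The other entries were called at the same stages, with log2 fold changes of 1.65 and 1.70 in stationary larvae and of 0.76 and 0.85 in prepupae. Within the first entry, the isoforms that carry the IM10 symbol held only 3.91 of 131 FPKM in trans-heterozygous and 1.18 of 39.9 FPKM in w1118 stationary larvae. In prepupae, where the entry was called higher, these isoforms had 1.15 of 84.9 FPKM in trans-heterozygotes and 1.22 of 48.6 FPKM in w1118. In wandering larvae they had 0.145 of 4.80 FPKM in trans-heterozygotes and 0.00103 of 6.39 FPKM in w1118. In prepupae the IM10 isoforms had 1.21 FPKM in trans-heterozygotes and 1.33 FPKM in w1118 in the second entry. In the last entry they had 1.20 FPKM in trans-heterozygotes and 1.06 FPKM in w1118. The values of these entries are therefore mostly those of isoforms named CG33470. The IM10 isoforms of the first entry did not have its direction at every stage. Their prepupal values lie close together, however, and their w1118 wandering value is near 0.

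RefSeq gives IM names to a further pair of genes that the tables list by CG number, so the symbol rule did not take them, and they are described after their values were seen. CG10332, now IM18, fell in wandering larvae to 2.18 FPKM in trans-heterozygotes, against 14.6 FPKM in w1118 (log2 fold change -2.74 ± 0.68, q = 7.83e-04). It was not called in stationary larvae, with 21.2 FPKM in trans-heterozygotes and 18.7 FPKM in w1118 (0.18 ± 0.37, q = 0.872), or in prepupae, with 13.3 FPKM in trans-heterozygotes and 21.8 FPKM in w1118 (-0.71 ± 0.37, q = 0.198). CG16712, now IM33, on arm 2L, had 64.1 FPKM in trans-heterozygotes and 55.5 FPKM in w1118 wandering larvae (0.21 ± 0.44, q = 0.997). It rose in stationary larvae to 123 FPKM in trans-heterozygotes, against 24.3 FPKM in w1118 (2.34 ± 0.49, q = 2.22e-05), and in prepupae it had 45.7 FPKM in trans-heterozygotes and 16.0 FPKM in w1118 (1.52 ± 0.63, q = 0.0816).

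The genes just beyond the bomanin cluster were called higher at each stage in part. Of the 11 entries within 20 kb of the cluster's IM genes that are not bomanins, mostly glutathione S-transferases of the epsilon class, 4 of 9 tested were called higher in wandering larvae, against 2.29% of tested genes, 3 of 8 in stationary larvae, against 4.7%, and 2 of 7 in prepupae, against 4.03%. None was called lower at any stage, against 9.49%, 13.2% and 12.9% of tested genes in stage order. GstE3 had 333 FPKM in trans-heterozygotes and 163 FPKM in w1118 wandering larvae (log2 fold change 1.03 ± 0.20, q = 1.27e-05), 264 FPKM in trans-heterozygous and 109 FPKM in w1118 stationary larvae (1.28 ± 0.22, q = 6.97e-08) and 192 FPKM in trans-heterozygous and 123 FPKM in w1118 prepupae (0.64 ± 0.18, q = 0.00343). Idgf5, a chitinase-like growth factor, had 20.1 FPKM in trans-heterozygous and 5.93 FPKM in w1118 stationary larvae (1.76 ± 0.33, q = 2.08e-06). So GstE3 rose at the wandering stage too, where IM1, IM2 and IM3 had lower FPKM in the trans-heterozygotes.

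Other products of Toll signalling were looked at next. Of a list of 15 further Toll effector entries, which holds 5 of the IM entries and 5 bomanins without an IM symbol, Cuffdiff called 0 of 10 tested in wandering larvae, with 1 at an unadjusted p of 0.05. It called 6 of 15 higher in stationary larvae, against 4.7% of all tested genes, and 4 of 12 in prepupae, against 4.03%. None was called lower at any stage, where 9.49%, 13.2% and 12.9% of all tested genes were in stage order. Over its tested entries with a value in both genotypes, the median log2 fold change was -0.41, 1.43 and 0.41 in stage order, beside -0.00, -0.04 and -0.05 over all tested genes. Most calls of this list were IM entries already counted above. They were IM4 and the IM10 entries in stationary larvae, and the IM10 entries in prepupae. Outside the IM entries and bomanins the list has 5 genes. Of these, 0 of 4 tested were called in wandering larvae, 2 of 5 were called higher in stationary larvae and 1 of 4 in prepupae. Their median log2 fold change, over those with a value in both genotypes, was -0.45, 1.27 and 0.55 in stage order. Drosomycin (Drs), an antifungal peptide and the usual readout of Toll, had 53.6 FPKM in trans-heterozygotes and 84.9 FPKM in w1118 wandering larvae (log2 fold change -0.66 ± 0.39, q = 0.428). It rose to 501 FPKM in trans-heterozygous stationary larvae, against 221 FPKM in w1118 (1.18 ± 0.25, q = 3.91e-05), and was called higher in prepupae with 587 FPKM in trans-heterozygotes and 364 FPKM in w1118 (0.69 ± 0.20, q = 0.00458). From wandering to stationary larvae the effect on Drs was larger by 1.84 ± 0.47 (q = 0.0186).

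CG18067 rose in stationary larvae to 465 FPKM in trans-heterozygotes, against 208 FPKM in w1118 (log2 fold change 1.16 ± 0.21, q = 3.21e-07), and its effect was larger there than in wandering larvae by 1.39 ± 0.31 (q = 0.00268). Metchnikowin (Mtk), an antimicrobial peptide that both Toll and Imd can induce, had 8.47 FPKM in trans-heterozygotes and 40.0 FPKM in w1118 wandering larvae (-2.24 ± 1.90, q = 0.744). In stationary larvae Mtk had 205 FPKM in trans-heterozygotes and 79.7 FPKM in w1118 (1.36 ± 0.66, q = 0.163), and in prepupae 160 FPKM in trans-heterozygotes and 147 FPKM in w1118 (0.12 ± 0.51, q = 0.940). Mtk was not called at any stage.

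By a fixed rule of likeness, the Euclidean distance between a gene's 3 log2 fold changes and the mean of the IM bomanins, Mtk was the nearest of 8007 eligible genes, at 0.819. The mean over the IM bomanins was -3.06, 1.34 and 0.09 in stage order, with IM23 absent from the first value. In prepupae that mean averages members of opposite sign, IM3 at 1.54 and IM1 at -1.13, so a gene near it is not near each of them. The next nearest were CG32069 at 1.32, CG10332 (IM18) at 1.45, CG43166 at 1.55 and TotA at 1.67. TotA, a stress-induced humoral factor, fell in wandering larvae to 349 FPKM in trans-heterozygotes, against 1981 FPKM in w1118 (log2 fold change -2.51 ± 0.21, q listed as 0). It had 1733 FPKM in trans-heterozygous and 1731 FPKM in w1118 stationary larvae (0.00 ± 0.22, q = 0.998). The likeness is over 3 values per gene and has no test.

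The signalling genes of the Toll pathway form a list of their own. Of 20 listed, all tested at each stage, Cuffdiff called 0 in wandering larvae, with 2 at an unadjusted p of 0.05, then 1 higher and 3 lower in stationary larvae, and 1 lower in prepupae. The 4 of 20 called in stationary larvae stand beside 17.9% of all tested genes and the 1 of 20 in prepupae beside 16.9%, so these counts do not set the list apart. The median log2 fold change of the list was 0.00, -0.10 and 0.10 in stage order. The serpin necrotic (nec), which restrains the protease cascade upstream of Spätzle, rose in stationary larvae to 39.5 FPKM in trans-heterozygotes, against 19.9 FPKM in w1118 (0.99 ± 0.35, q = 0.0305). The inhibitor cactus (cact), which holds Dif and Dorsal in the cytoplasm, had 70.5 FPKM in trans-heterozygotes and 115 FPKM in w1118 there (-0.70 ± 0.23, q = 0.0157). GNBP3, a recognition protein for fungal glucans, fell to 116 FPKM in trans-heterozygotes, against 215 FPKM in w1118 stationary larvae (-0.89 ± 0.19, q = 5.96e-05), and was lower again in prepupae with 104 FPKM in trans-heterozygotes and 172 FPKM in w1118 (-0.73 ± 0.15, q = 3.86e-05). Pellino (Pli), which binds the kinase downstream of Toll, had 109 FPKM in trans-heterozygous and 173 FPKM in w1118 stationary larvae (-0.67 ± 0.21, q = 0.0121).

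The ligand, the receptor and the transcription factors were not called at any stage. In stationary larvae spz, which encodes Spätzle, had 48.7 FPKM in trans-heterozygotes and 48.5 FPKM in w1118 (0.00 ± 0.29, q = 0.998). Tl, the receptor, had 32.7 FPKM in trans-heterozygotes and 24.2 FPKM in w1118 (0.44 ± 0.20, q = 0.120), Dif had 22.7 FPKM in trans-heterozygotes and 25.3 FPKM in w1118 (-0.15 ± 0.28, q = 0.846) and dl, which encodes Dorsal, had 38.3 FPKM in trans-heterozygotes and 23.9 FPKM in w1118 (0.68 ± 0.27, q = 0.0568). Spätzle, Dif and Dorsal act after cleavage or on entering the nucleus, which RNA levels do not measure.

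Effectors of the Imd pathway, the second humoral arm that answers mainly Gram-negative bacteria, were called at all 3 stages. Of the Imd effectors, 2 of 14 tested were called higher and 1 lower in wandering larvae, against 2.29% and 9.49% of all tested genes. In stationary larvae 10 of 15 were higher, against 4.7%, and in prepupae 9 of 15 were higher and 1 lower, against 4.03% and 12.9%. Their median log2 fold change was 0.98, 2.04 and 1.17 in stage order, and Mtk stands in this list too. Diptericin (Dpt) had 77.5 FPKM in trans-heterozygotes and 32.5 FPKM in w1118 wandering larvae (1.26 ± 0.36, q = 0.00692), 713 FPKM in trans-heterozygous and 74.0 FPKM in w1118 stationary larvae (3.27 ± 0.28, q listed as 0) and 365 FPKM in trans-heterozygous and 122 FPKM in w1118 prepupae (1.59 ± 0.21, q = 7.15e-12). AttA fell in wandering larvae to 4.68 FPKM in trans-heterozygotes, against 17.4 FPKM in w1118 (-1.90 ± 0.52, q = 0.00366), and its near copy AttB rose in stationary larvae to 281 FPKM in trans-heterozygotes, against 58.5 FPKM in w1118 (2.27 ± 0.24, q listed as 0). How reads were divided between these copies is uncertain. From wandering to stationary larvae the effect was larger by 2.01 ± 0.46 for Dpt (q = 0.00371) and by 3.55 ± 0.77 for Dro (q = 0.00136). For the other Imd effectors that could be tested this difference did not pass. From stationary larvae to prepupae the effect changed by -1.68 ± 0.35 for Dpt (q = 7.01e-04) and by -2.05 ± 0.50 for Dro (q = 0.00852). Over all genes, 0.66% and 0.861% passed in these comparisons. Of 14 Imd pathway genes, 0 were called in wandering larvae (1 at an unadjusted p of 0.05), and the 1 called at each later stage stands beside 17.9% and 16.9% of all tested genes. Rel alone was called in stationary larvae, higher with 96.0 FPKM in trans-heterozygotes and 58.4 FPKM in w1118 (0.72 ± 0.23, q = 0.0149), and pirk alone in prepupae, higher with 29.4 FPKM in trans-heterozygotes and 12.3 FPKM in w1118 (1.26 ± 0.25, q = 1.1e-05).

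**Figure D5:**
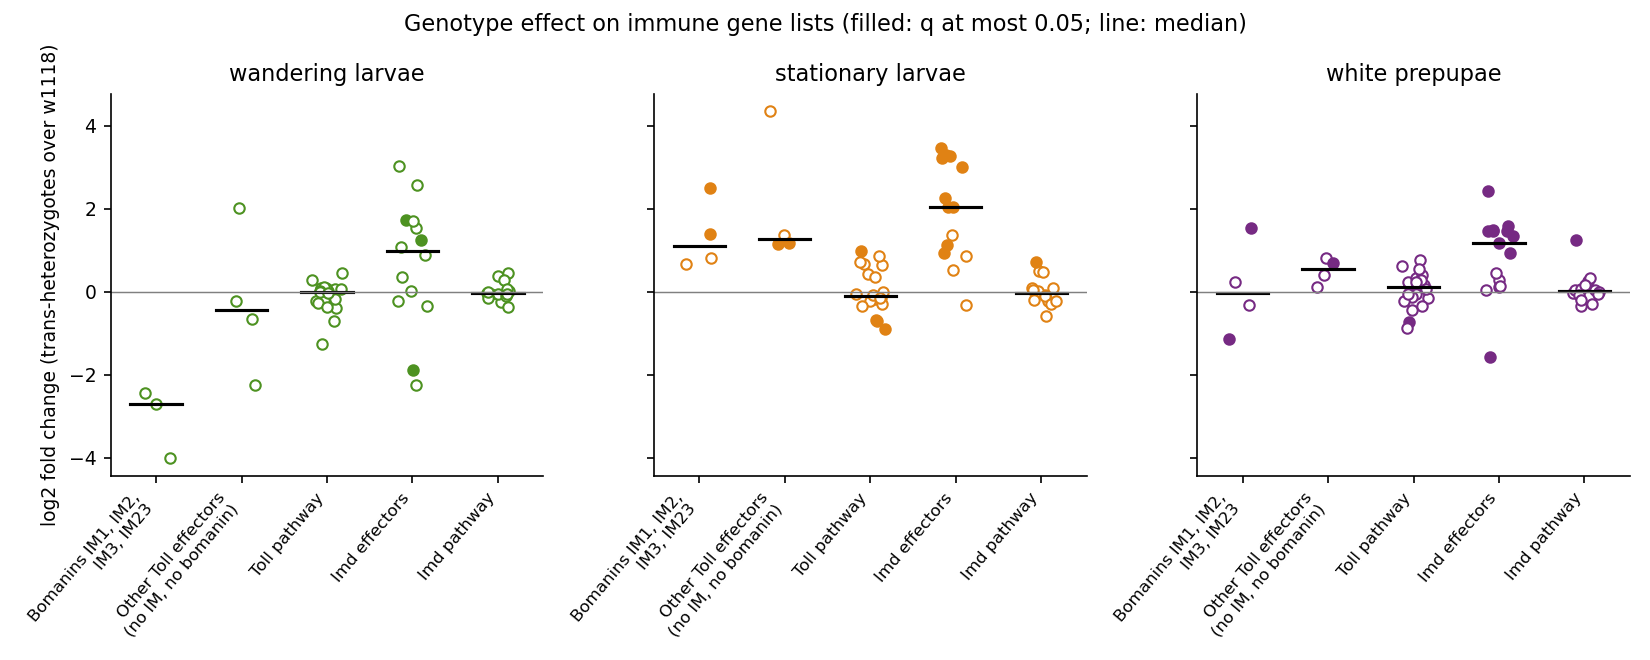
Log2 fold change of trans-heterozygotes over w1118 for the tested genes of each immune list that have a value in both genotypes, filled where q was at most 0.05, with a line at each median. The medians of the IM bomanins are -2.71, 1.11 and -0.03 in stage order, while those of the Toll pathway genes are 0.00, -0.10 and 0.10.

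The fat body and the blood cells were measured through their markers, and none of the genes summed here was at 0 in either genotype. The FPKM of 6 fat body markers summed to 46895 in trans-heterozygous and 40456 in w1118 wandering larvae. It summed to 29243 in trans-heterozygous and 27566 in w1118 stationary larvae and to 27364 in trans-heterozygous and 22083 in w1118 prepupae. The log2 ratio of these sums was 0.21, 0.09 and 0.31 in stage order. Single genes of the sum went both ways. Lsp1beta was called higher in stationary larvae (log2 fold change 1.14 ± 0.25, q = 7.49e-05). In prepupae Fbp2 was called higher (0.73 ± 0.18, q = 6.97e-04) and Lsp1alpha lower (-1.15 ± 0.16, q = 6.61e-11). Lsp1alpha, at 309 FPKM in trans-heterozygous prepupae, weighs little in the sum beside Fbp1 at 10335 FPKM. The 6 matched haemocyte markers, for the blood cells, summed to 322 in trans-heterozygous and 314 in w1118 wandering larvae, to 251 in trans-heterozygous and 322 in w1118 stationary larvae and to 193 in trans-heterozygous and 204 in w1118 prepupae. Single haemocyte genes did not all follow this sum. In stationary larvae nimC2, the most abundant of those summed, fell with the sum to 118 FPKM in trans-heterozygotes, against 218 FPKM in w1118 (log2 fold change -0.88 ± 0.20, q = 1.56e-04). Of those summed, eater was called lower there too, with 8.84 FPKM in trans-heterozygotes and 13.7 FPKM in w1118 (-0.63 ± 0.24, q = 0.0464). Against the sum, Hml was called higher there, with 5.49 FPKM in trans-heterozygotes and 2.54 FPKM in w1118 (1.11 ± 0.26, q = 1.88e-04), 2.16-fold higher. The prophenoloxidase genes of the melanising crystal cells are outside the sum. In stationary larvae proPO45 had 12.6 FPKM in trans-heterozygotes and 1.42 FPKM in w1118 (3.14 ± 0.43, q = 2.3e-11). There proPO-A1 had 14.0 FPKM in trans-heterozygotes and 1.51 FPKM in w1118 (3.22 ± 0.62, q = 4.48e-06). These folds, 8.82 and 9.29, were larger than the 5.62 of IM3. In wandering larvae, where the IM genes had lower FPKM in trans-heterozygotes, both were called higher as well. The log2 fold change there was 2.24 ± 0.27 for proPO45 (q listed as 0) and 2.42 ± 0.30 for proPO-A1 (q = 2.88e-14). The part of these genes in the IM results was not tested. In a wider list of fat body genes, 0 of 7 were called in wandering larvae (1 at an unadjusted p of 0.05), 1 was higher and 1 lower in stationary larvae, and 1 was higher and 2 lower in prepupae. Yp1 of that list was listed at 0 in w1118 stationary larvae. In the wider haemocyte list, 4 of 14 were called higher in wandering larvae, 3 higher and 2 lower in stationary larvae, and 2 of 13 higher in prepupae. The shares of all tested genes called higher were 2.29%, 4.7% and 4.03% in stage order, and those called lower 9.49%, 13.2% and 12.9%.

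Markers of other tissues also differed between the genotypes, though not all of them at every stage. In stationary larvae the 4 gut markers summed to 823 FPKM in trans-heterozygotes and 104 FPKM in w1118, with all 4 called higher. The 5 muscle markers summed to 911 FPKM in trans-heterozygotes and 304 FPKM in w1118, with all 5 called higher, and the 6 salivary glue genes to 75663 FPKM in trans-heterozygotes and 66106 FPKM in w1118, with 4 called higher. The 3 testis markers summed to 11.3 FPKM in trans-heterozygotes and 396 FPKM in w1118, with all 3 called lower. Of all genes tested in stationary larvae, 4.7% were called higher and 13.2% lower. In wandering larvae, where the IM genes had lower FPKM in the trans-heterozygotes, the gut sum was 1193 FPKM in trans-heterozygotes and 392 FPKM in w1118 and the muscle sum 1926 FPKM in trans-heterozygotes and 1179 FPKM in w1118. In prepupae the gut sum was 45.3 FPKM in trans-heterozygotes and 21.7 FPKM in w1118. The muscle sum there was 157 FPKM in trans-heterozygotes and 140 FPKM in w1118. In wandering larvae the glue sum was 139608 FPKM in trans-heterozygotes and 141187 FPKM in w1118. None of the glue genes was called there, against 11.8% of tested genes. In prepupae it was 2898 FPKM in trans-heterozygotes and 1711 FPKM in w1118, with 5 called higher, against 4.03% of tested genes. All 3 testis markers were called lower at these stages too, against 9.49% and 12.9%. The part of these tissue differences in the IM results was not tested.

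The tables of splicing, promoter and coding-sequence usage held 78 lines for the IM entries over the 3 stages. Cuffdiff tested 3 of these, the splicing of the IM10 entries in wandering larvae, and called 0.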

How the data were processed

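RNA was extracted with Trizol, made into libraries with the ScriptSeq kit and sequenced on an Illumina HiSeq, per the labels' protocols. Bowtie 1.1.1, Cufflinks and Cuffdiff are named, per the submitters' processing notes. The build of the coordinates is not given in the sources used here, nor are settings. RefSeq was used for names only.

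The deposited FPKM are 1 value for each genotype at each stage, which the authors pooled over 3 samples, so the depth per sample is unknown and no counting interval is given. The labels do not say whether the samples of a group came from separate cultures, so the authors' tests measure the spread between these samples, which may be technical. The log2 fold change, p-value and q-value are deposited columns, as is the score of the usage tables, a square-rooted Jensen-Shannon divergence, per the file headers. The authors deposited 18 tables, 6 per stage.

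From these values, the standard error was computed as the size of the log2 fold change over that of the test statistic. Differences between stages were tested with a two-sided normal test and Benjamini-Hochberg adjustment over all genes tested at both stages. This step was run on simulated data, with noise drawn from the same standard errors that the test used. Changes were planted only in genes with small standard errors. The simulation therefore cannot show how the step performs for genes with large errors, such as the IM bomanins in wandering larvae. The members and the gene lists were chosen with earlier results of these data known. The genes named are the IM entries, the bomanins, entries within 20 kb, up to 4 called and 2 uncalled genes of each list and stage, and the 5 genes of nearest fold changes with at least 5 FPKM. IM18, IM33 and the remaining genes of the signalling lists were added after their values were seen. Of the list symbols, 3 of 16 Toll effectors, 2 of 16 Imd pathway genes, 1 of 16 Imd effectors, 4 of 12 fat body genes and 3 of 17 haemocyte genes matched no entry. Python 3.11.15, pandas 2.3.3, numpy 2.4.6, scipy 1.17.1 and matplotlib 3.10.9 were used. Alternatives were a q of 0.01, adjustment over genes of at least 1 FPKM, pseudocounts of 0.1 and 1 FPKM, centring on the median ratio, and the start-site and isoform tables.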

Additional observations from a re-analysis of the deposited data

Results flagged for a closer look

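The genotype effect of 3 comparisons differed between stages by a test of the difference itself, adjusted with the Benjamini-Hochberg method over all genes tested at both stages. For IM3, the log2 fold change of trans-heterozygotes over w1118 was larger in stationary than in wandering larvae by 4.94 ± 1.08 (q = 0.00172), and larger in prepupae than in wandering larvae by 4.0 ± 1.08 (q = 0.0236). For IM1, the change from stationary larvae to prepupae was -1.79 ± 0.46 (q = 0.0147). The test takes the stages as independent samples. The IM3 differences share the wandering value, whose own q was 0.129.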

How the results depend on the processing

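The log2 fold changes kept their direction in 66 of 66 checks under pseudocounts and median centring, which carry no test of their own. The largest move was that of IM2 in wandering larvae, to -2.64 with a pseudocount of 1 FPKM, against -4.01 as reported. The stage differences kept their direction and call in 40 of 40 checks, under centring or adjustment over genes of at least 1 FPKM. Under a q of 0.01, 1 IM entry remained called in prepupae in place of 5, and 1 IM bomanin in place of 2, since IM1 had q = 0.0101. The stationary count of 6 was the same. Counting the 3 IM10 entries as 1, an alternative chosen after seeing the data, gave 4 calls in stationary larvae and 3 in prepupae. The start-site and isoform tables gave 0 calls for the IM entries and 0 for the IM bomanins, in stationary larvae (6 and 2 in the gene tables) and in prepupae (5 and 2). Most of these entries, and every IM bomanin, had no test there at these stages. For the IM bomanins the 0 was therefore fixed in advance and says nothing about their effect. Under a q of 0.01, calls were 1 in place of 4 for the Toll pathway, 0 in place of 1 for the Imd pathway and 1 in place of 2 for fat body genes in stationary larvae, and 1 in place of 4 for Toll effectors and 0 in place of 2 for haemocyte genes in prepupae. No paired analysis was possible because the deposited tables hold 1 pooled value per genotype and stage, and leaving out single samples was not run for the same reason. Depth is unknown, so low values such as those of wandering larvae have no counting error of their own.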
